A study of Mus musculus with 2 samples.

Results

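Endothelial cells, the cells that line blood and lymphatic vessels, were studied in orthotopic KPC pancreatic tumours of mice by single-cell RNA sequencing. KPC is a mouse model of pancreatic cancer, and orthotopic means that the tumour cells were placed in the pancreas itself. The control library came from Porcnfl/fl littermates (labelled WT) and the knockout library from Csf1r-Cre;Porcnfl/fl mice. In the knockout mice, Cre driven by the Csf1r promoter, which is active in macrophages and related myeloid cells, removes Porcn, the enzyme that attaches the lipid needed for Wnt ligand secretion. Both genotypes carry the floxed Porcn alleles and both received the same tumour cells. Tumours were taken at day 21, and those of 5 mice per genotype were pooled into 1 library, so the difference between the libraries has no replicate check. Intervals below are exact, at 95%, and cover counting error only.

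A barcode was taken as endothelial when it had at least 500 genes, at most 15% mitochondrial UMIs, at least 3 UMIs over Pecam1, Cdh5 and Egfl7 with at least 1 of Cdh5, no Ptprc UMI and at most 10 UMIs over Krt8, Krt18 and Krt19. A UMI is a molecular tag that marks 1 captured RNA molecule. Pecam1 and Cdh5 code for adhesion proteins of endothelial junctions and Egfl7 for a matrix protein made by endothelium, while Ptprc marks leukocytes and the keratins mark epithelial cells. The rule found 58 cells among the 22472 that passed the limits on genes and mitochondrial UMIs, 39 of 11664 from control and 19 of 10808 from knockout tumours. Since these genes chose the cells, their levels are a description. The sum over the 3 endothelial genes ran from 3 to 201 UMIs in the control cells, with a median of 20, and from 3 to 148 in the knockout cells, with a median of 15.

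Endothelium is held to its identity by transcription factors of the ETS, SOX and GATA families and depends on VEGF signalling through the receptors Kdr, Flt1 and, in lymphatic vessels, Flt4. Blood endothelium differs along the vessel from arteries through capillaries to veins, and growing tumour vessels carry tip cells, which lead a sprout and make Apln, Esm1 and Angpt2. Lymphatic endothelium arises under control of Prox1 and secretes Ccl21, a chemokine that draws dendritic cells and T cells into lymphatic vessels. Endothelial cells also receive Wnt ligands through frizzled receptors, among which Fzd4 is the best known in blood vessels.

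Promoters of 3 genes are shown because they stand for the patterns described below: Tie1, an endothelial receptor kinase found at a like level in blood and lymphatic cells; Emcn, a blood-vessel sialomucin; and Ccl21a, the lymphatic chemokine. Each is the 250 bases before the RefSeq start (GRCm38.p6), written 5′ to 3′ on the gene's strand, at chr4:118489850-118490099 on the minus strand for Tie1, chr3:137340828-137341077 on the plus strand for Emcn and chr4:42773992-42774241 on the minus strand for Ccl21a. Capitals mark the ETS motif CAGGAAG read on either strand.
Tie1 promoter: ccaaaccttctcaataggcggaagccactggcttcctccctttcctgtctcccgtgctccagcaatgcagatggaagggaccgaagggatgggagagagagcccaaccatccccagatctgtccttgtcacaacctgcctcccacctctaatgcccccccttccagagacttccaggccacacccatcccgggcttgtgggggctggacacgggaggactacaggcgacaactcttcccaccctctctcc
Emcn promoter: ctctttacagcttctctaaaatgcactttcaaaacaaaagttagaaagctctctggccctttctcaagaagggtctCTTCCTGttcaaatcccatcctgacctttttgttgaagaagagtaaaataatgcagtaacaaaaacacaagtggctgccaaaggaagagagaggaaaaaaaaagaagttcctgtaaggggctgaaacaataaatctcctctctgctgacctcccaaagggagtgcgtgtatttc
Ccl21a promoter: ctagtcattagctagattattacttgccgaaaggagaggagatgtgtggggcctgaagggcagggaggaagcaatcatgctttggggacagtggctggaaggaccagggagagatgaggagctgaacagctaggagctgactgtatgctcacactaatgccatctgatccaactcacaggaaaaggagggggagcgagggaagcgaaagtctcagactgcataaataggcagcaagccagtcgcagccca
The Emcn window held 1 match and the other windows held 0. Among the 20 genes that stood highest in these cells over all others, 14 had a promoter in the RefSeq table, and 5 of those (35.7%; Robo4, Grrp1, Cyyr1, Emcn and Btnl9) held the motif, against 12.1% of 27025 promoters of this length. The SOX motif AACAAT was in 3 of the 14 (21.4%) against 10.9%, the GATA motif AGATAA in 2 (14.3%) against 11.4%, and the FOX motif TGTTTAC in 0 against 3.54%. These are letter matches on both strands in a short window and describe no binding.

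The label was checked against 22 further endothelial genes that the rule did not use. All 22 were higher in the 58 cells than in the other kept cells by over 2-fold, with a median log2 ratio of 8.43, where 28.1% of the 4280 genes with at least 20 UMIs were higher by that fold and 4.3% lower. Their summed level was 3571 CPM (UMIs of the gene per 1000000 UMIs) in the lowest cell, 13650 in the median cell and 32390 in the highest, and no cell was without them. The 20 genes with the highest ratio over other cells included the tight junction gene Cldn5, the lipase anchor Gpihbp1, the guidance receptor Robo4, Tie1, Myct1, Emcn, the adhesion receptor Adgrl4, the transcription factors Sox17 and Sox18, the retinoid-binding protein gene Rbp7 and Btnl9. In cells thinned to 2000 UMIs, Kdr was detected in 37 of 48 endothelial cells (77.1%, interval 62.7 to 88.0%) and Plvap, a protein of capillary windows, in 79.2%. Kdr was found in 0 of 997 keratin-high cells (interval 0 to 0.369%) and Plvap in 1.204% of them. That class was restricted to cells without a Cdh5 UMI, which can lower such detection in advance. Without thinning, Kdr was detected in 89.7% of the 58 cells, whose median depth was 4206 UMIs, and in 0.3% of keratin-high cells, whose median was 15930.

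Markers of other cell types were sparse. Over all 58 cells, 10 epithelial markers gave 58 UMIs with 4 at 0, Epcam among them, 10 pericyte and smooth muscle markers gave 38 UMIs with 7 at 0, 9 fibroblast markers gave 35 UMIs with 2 at 0 and 13 leukocyte markers gave 18 UMIs with 4 at 0. The epithelial list includes Krt8, Krt18 and Krt19, which the rule capped, and the leukocyte list includes Ptprc, which it excluded. The counts of these genes were therefore limited in advance. The summed epithelial level was 0 to 1626 CPM per cell in the control cells and 0 to 1074 in the knockout cells. Scrublet, a doublet caller, marked 0 of the 58 cells, against 148 kept control cells (1.27%) and 341 kept knockout cells (3.16%). The rule had already removed barcodes with Ptprc or over 10 keratin UMIs, so the count of 0 says little about doublets with leukocytes or tumour cells. Scrublet marked 2 of the 13 control barcodes left out for keratin alone. The libraries shared 46 barcodes, of which none was an endothelial cell. The endothelial cells were shallower than the rest, at medians of 4611 (control) and 3970 UMIs (knockout) against 12235 and 10321 over all kept cells.

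Near the limits of the rule, 2 control and 4 knockout cells had a sum of 3 or 4 UMIs, and all 6 held UMIs of other endothelial genes. Just outside it, 1 control and 2 knockout barcodes had a sum of 2 with Cdh5 detected, and 1 in each library held other endothelial genes. The keratin limit removed 13 control and 2 knockout barcodes that met the endothelial part of the rule. These were deep, with medians of 21708 and 24032 UMIs, and 11 and 2 of them held other endothelial genes. The Ptprc limit removed 1 control and 3 knockout barcodes.

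Blood and lymphatic endothelium separated without overlap on Ccl21a, Prox1, Lyve1 and Mmrn1. Cells with at least 5 Ccl21a UMIs were called lymphatic type, which gave 7 of 58 cells (12.1%, interval 4.99 to 23.3%), and the other 51 were called blood type. No blood-type cell held a Ccl21a UMI, so a limit of 1 UMI gave the same 7 cells. Because both types were defined from these counts, what follows is a description. The 7 lymphatic cells carried 13, 23, 271, 14, 116, 469 and 617 Ccl21a UMIs, the first 3 in the control library, and they ranged in depth from 931 to 52235 UMIs. Ccl21a (chr4:42772860-42773993, minus strand, mm10) has near-identical copies in the mouse genome, and all 1523 of its UMIs in these cells were assigned to a single copy, so the split among copies is uncertain.

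Every lymphatic cell also held Prox1, the lymphatic master regulator, Lyve1, a hyaluronan receptor, and Mmrn1, a secreted glycoprotein. Prox1 gave 2, 33 and 6 UMIs in the control cells and 26, 4, 1 and 62 in the knockout cells, against 0 in all 51 blood cells. Against the level that 3 UMIs over the blood cells would give, Ccl21a was at least 1425-fold higher in lymphatic cells, Lyve1 at least 227-fold, Mmrn1 at least 216-fold, Prox1 at least 125-fold and the matrix protein gene Reln at least 90.8-fold. The transcription factor gene Maf was 55.5-fold higher (interval 20.8 to 209) and the tight junction gene Cldn5 17.3-fold (12.4 to 24.6), although a single lymphatic cell gave 67.9% of the lymphatic Cldn5 UMIs. Flt4, the receptor for lymphatic VEGF ligands, was 10.4-fold higher (6.37 to 17.8) but did not separate the types, since 15 of 51 blood cells held 1 to 3 UMIs and 1 lymphatic cell held none. When lymphatic cells were instead called from at least 2 UMIs over Prox1, Lyve1, Mmrn1 and Flt4, 4 cells with Flt4 alone and no Ccl21a joined the 7.

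**Figure D1:**
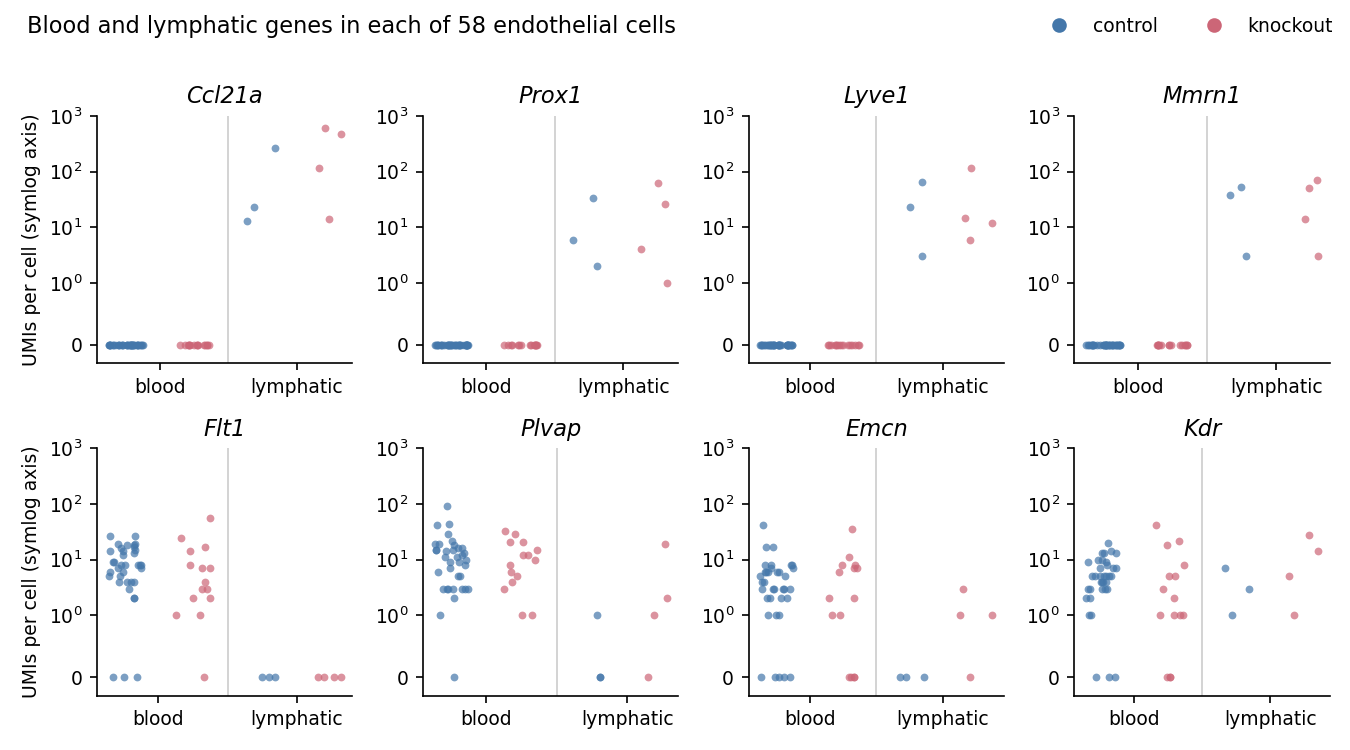
UMIs per cell of 4 lymphatic genes (Ccl21a, Prox1, Lyve1, Mmrn1) and 4 genes of blood or all endothelium (Flt1, Plvap, Emcn, Kdr) on an axis that is linear near 0 and logarithmic above; each point is a cell, blue for control and red for knockout, placed by type. The 51 blood cells are all at 0 for the lymphatic genes and the 7 lymphatic cells are all at 0 for Flt1, while Kdr is present in both types.

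All 11 genes of the lymphatic list were higher in the lymphatic cells by over 2-fold, at a median log2 ratio of 6.66 against 0.13 for all genes, where 14.2% of the 4280 genes passed that fold upward and 12.1% downward. In blood cells 7 of the 11 were at 0, and Flt4, Nrp2, Maf and Stab1 gave 151 UMIs over 44 of the 51 cells. The venous transcription factor gene Nr2f2, known to act with Prox1, was 5.74-fold higher in lymphatic cells (3.99 to 8.35), the scavenger receptor gene Stab1 6.95-fold (4.82 to 10.2) and the co-receptor gene Nrp2 3.71-fold (2.77 to 4.99). By the naming rule, which asks for detection in at least 25% of cells and no dominating cell, only 5 genes qualified as higher in lymphatic cells: Lbp, Atp6v1c1, Tmed5, Vezf1 and Gtf2e2. As lower, 1346 genes qualified. The deepest lymphatic cell gave 52235 of the 118820 lymphatic UMIs, so the limit on a dominating cell fell mostly on the lymphatic side. The 5 names are what that limit left and not the leading lymphatic genes. Lbp, which codes for a lipopolysaccharide-binding protein, gave 21 UMIs in 6 of 7 lymphatic cells and 9 UMIs in 7 of 51 blood cells. The deepest lymphatic cell, in the knockout library, differed from the others: it held 46 of the 51 lymphatic UMIs of the arterial connexin gene Gja4, 171 of the 252 of Cldn5 and 19 of the 23 of Plvap.

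Several genes were frequent in blood cells and at or near 0 in lymphatic cells. Fabp4, a fatty acid carrier of capillary endothelium, gave 1961 UMIs in 49 of 51 blood cells and 1 UMI in the lymphatic cells. Flt1, the VEGF receptor that also acts as a decoy, gave 492 UMIs in 47 blood cells and none in lymphatic cells, so it was at least 58.4-fold higher. By the same measure Sparcl1 and Ly6c1 were each at least 49.98-fold higher, the transcription factor gene Mecom at least 38.8-fold, the co-receptor gene Nrp1 at least 28.0-fold, Cd34 at least 27.5-fold and Vwf, the gene of von Willebrand factor, at least 14.7-fold. All 8 capillary genes with enough UMIs were lower in lymphatic cells by over 2-fold, at a median log2 ratio of -3.73. Of 11 tip and angiogenic genes, 10 were lower and 1 higher, and of 9 venous genes 6 were lower and 1 higher. Tie1, whose promoter is shown above, was alike in both, at 93 UMIs in blood and 33 in lymphatic cells, a ratio of 0.996 (0.649 to 1.50). The pan-endothelial genes were lower in lymphatic cells on balance: 12 of 22 were lower by over 2-fold and 2 higher, at a median of -1.58.

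Among the 51 blood cells, Btnl9 was never detected in the same cell as any of 4 genes from the list of 9 venous genes. Btnl9, a butyrophilin-like membrane protein gene of capillary endothelium (chr11:49165585-49187159, minus strand), was detected in 17 cells (33.3%, interval 20.8 to 47.9%). At least 1 of the venous genes Lrg1, Vwf, Selp and Ackr1 was detected in 27 cells (52.9%, 38.5 to 67.1%), 7 cells had neither and 0 had both (0 to 6.98%). The pattern was chosen after the values were seen, so it is a description. Other genes of the capillary and venous lists did mix. Slco2a1, of the venous list, was detected in 6 of 11 control and 3 of 6 knockout Btnl9 cells. Gpihbp1, of the capillary list, was detected in 11 of the 27 venous-gene cells. Depth differed between the patterns, with medians of 3700 UMIs in the Btnl9 cells, 6982 in the venous-gene cells and 3039 in the cells with neither.

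Genes that took no part in this division differed with it. Nr2f2 gave 44 UMIs in 17 of 27 venous-gene cells and 0 in the 17 Btnl9 cells. The leukocyte adhesion gene Vcam1 was detected in 9 venous-gene cells and in no Btnl9 cell. Mecom (chr3:29951296-30548008, minus strand) was detected in 22 of 27 venous-gene cells at 1322 CPM and in 2 of 17 Btnl9 cells at 86.7 CPM, and the collagen XVIII gene Col18a1 gave 84 UMIs against 1. In the other direction, the endothelin receptor gene Ednrb gave 36 UMIs in 12 of 17 Btnl9 cells and 2 UMIs in the venous-gene cells. The chloride channel family gene Clic5 gave 33 UMIs against 2, the gene of the adrenomedullin co-receptor Ramp3 22 against 2 and the thrombomodulin gene Thbd 55 against 16. The chemokine gene Cxcl12 stood at 2182 CPM in Btnl9 cells and 227 CPM in venous-gene cells, and Kdr at 2442 and 434 CPM. Of the 2950 genes with at least 20 UMIs over the pair of patterns, 10.2% were higher and 11.7% lower in venous-gene cells by over 2-fold. The 14 arterial genes gave 278 UMIs in 45 of the 51 blood cells, at 685 CPM in the median cell. Among them the connexin gene Gja4 gave 11 UMIs in 4 cells and the ephrin gene Efnb2 29 UMIs in 20. Of the Gja4 UMIs, 10 lay in 3 of the 27 venous-gene cells, so that pattern is named for the genes that define it and is not a vessel class. The 7 genes of high endothelial venules, the vessels through which lymphocytes enter lymph nodes, gave 70 UMIs in 26 blood cells, with 3 genes at 0 and up to 1961 CPM in a cell. Spns2 gave 48 of these UMIs and Enpp2 14, and Spns2 also gave 24 UMIs in lymphatic cells.

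**Figure D2:**
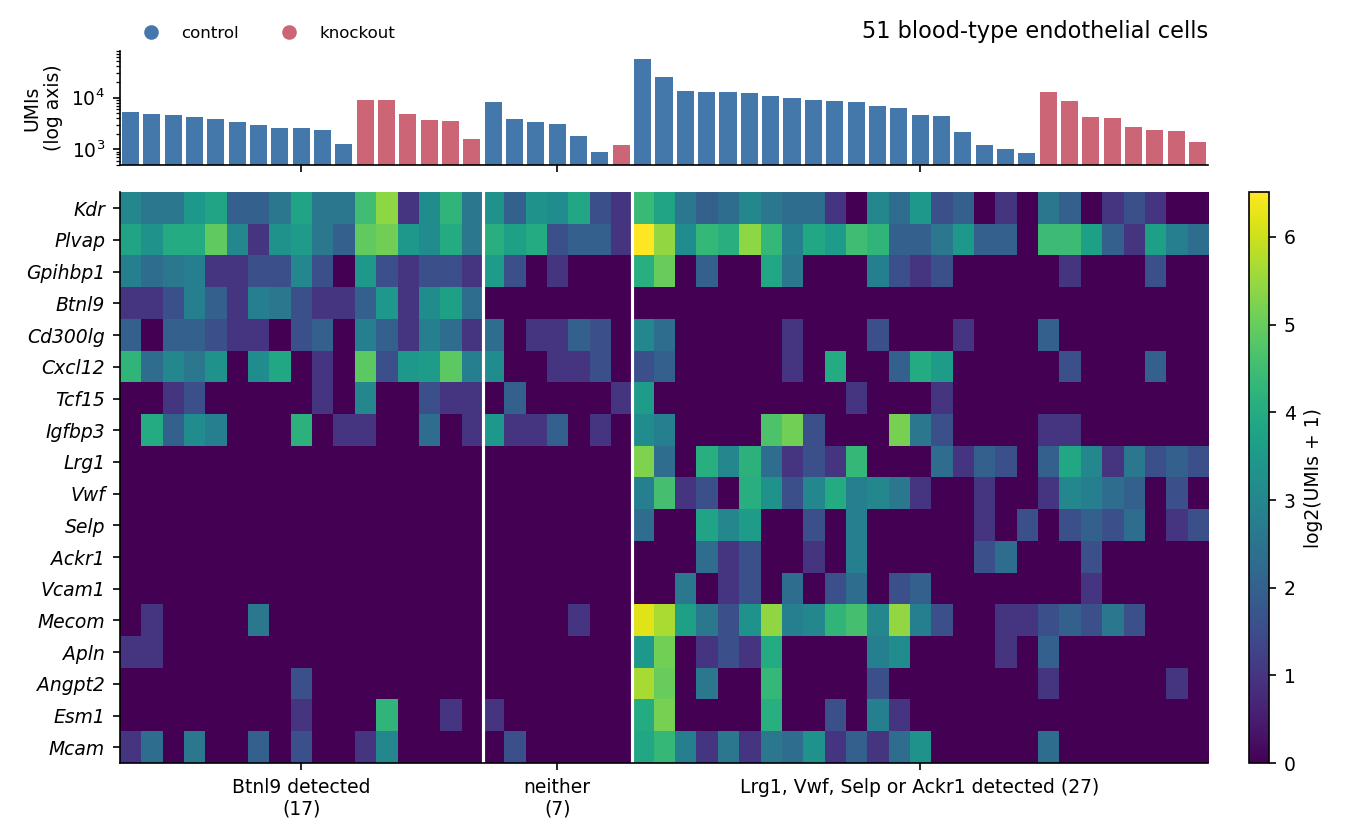
UMIs of 18 genes (rows, colour scale of log2(UMIs + 1)) in each of the 51 blood-type cells (columns), ordered by pattern and then by library and depth; the bars above give each cell's total UMIs on a log axis, blue for control and red for knockout. Btnl9 is at 0 in all 27 cells with Lrg1, Vwf, Selp or Ackr1, and Apln, Angpt2 and Esm1 are high in the deep control cells on the right.

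Endothelial cells made up a smaller share of the knockout library. They were 39 of 11664 kept cells in the control (0.334%, interval 0.238 to 0.457%) and 19 of 10808 in the knockout (0.176%, 0.106 to 0.274%), a ratio of 0.526 (0.287 to 0.932). Blood-type cells numbered 36 in the control (0.309%) and 15 in the knockout (0.139%), a ratio of 0.450 (0.229 to 0.842). Lymphatic cells numbered 3 and 4, a ratio of 1.44 with an interval of 0.243 to 9.82, which holds 1. Lymphatic cells were thus 7.69% of control and 21.1% of knockout endothelial cells, with intervals that overlap (1.62 to 20.9% and 6.05 to 45.6%).

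The share depends on which other cells were captured. Leukocytes were 8.31% of kept control cells and 30.3% of kept knockout cells, and keratin-high cells 69.9% and 47.3%. Counted among cells without Ptprc, the ratio of endothelial shares was 0.720 (0.393 to 1.28), and among cells without Ptprc and with at most 10 keratin UMIs it was 0.567 (0.310 to 1.01); both intervals hold 1. For blood-type cells alone these ratios were 0.616 (0.313 to 1.15) and 0.485 (0.247 to 0.909). Pericytes and smooth muscle cells, which wrap blood vessels, numbered 59 and 18, a ratio of 0.329 (0.183 to 0.566), so there were 0.661 endothelial cells per such cell in the control and 1.06 in the knockout library. Whether tumours held fewer endothelial cells or fewer were recovered from the tissue cannot be told apart in these libraries.

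**Figure D3:**
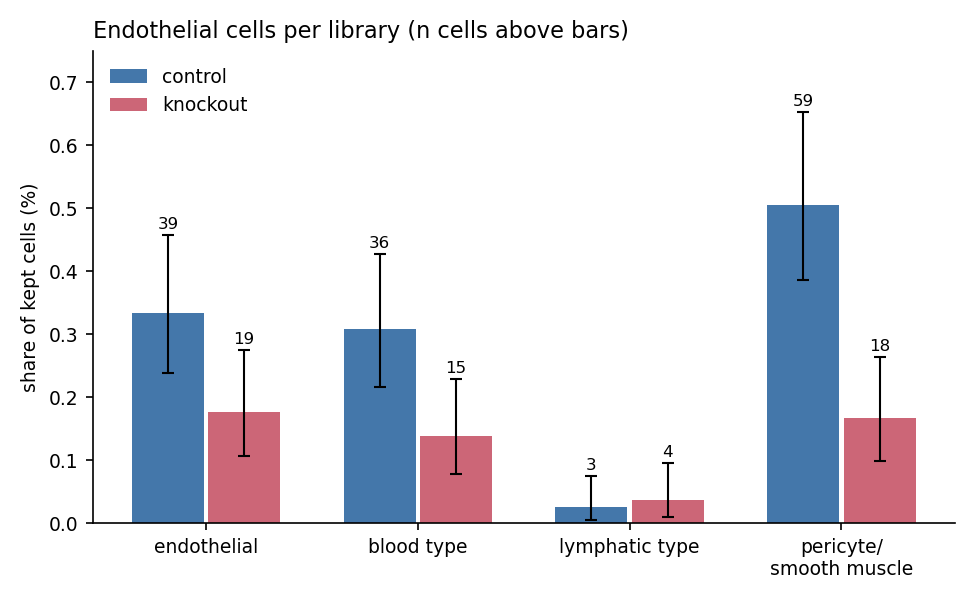
Share of kept cells (percent) that were endothelial, blood type, lymphatic type, or pericyte and smooth muscle in the control (blue) and knockout (red) library, with exact 95% intervals for counting error and the number of cells above each bar. The 39 and 19 endothelial cells correspond to 0.334% and 0.176%, and only the lymphatic bar is higher in the knockout library, with intervals that overlap widely.

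Levels over all 58 cells mixed the types in unequal parts. Lymphatic cells gave 9.48% of the control and 56.4% of the knockout endothelial UMIs, and the 2 deepest knockout lymphatic cells alone gave 53.2%. All 11 lymphatic genes were higher in the knockout sum by over 2-fold (median log2 ratio 2.01), where 7.76% of 4280 genes were higher and 6.87% lower. Cldn5 had opposite signs with the cells used, at a log2 ratio of 2.27 over all cells and -1.84 in blood cells. The comparison is therefore given for the 36 control and 15 knockout blood-type cells, with 263046 and 70569 UMIs. In these cells 5.13% of 3157 genes were higher in the knockout library and 7.25% lower, and the median over all genes was 0.01. The log2 ratios have 1 UMI added to each sum, and ratios with intervals are of the counts themselves.

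Genes of tip cells and vessel growth were lower in the knockout blood cells on balance. Of 10 such genes with enough UMIs, 5 were lower by over 2-fold and 1 higher, at a median log2 ratio of -0.87. Apln, the ligand by which tip cells signal to neighbouring endothelium (chrX:48025146-48034853, minus strand), ran from 0 through a median of 0 to 34 UMIs in the 36 control cells and was detected in 11. In the 15 knockout cells it was detected in 1, with 3 UMIs. The levels were 304 CPM and 42.5 CPM, a control to knockout ratio of 7.15 (2.36 to 35.4). Angpt2, a destabilising ligand of the receptor Tek, gave 108 UMIs in 6 control cells (0 to 49 per cell) and 2 UMIs in 2 knockout cells, a ratio of 14.5 (3.92 to 121). Igfbp3, a gene of an insulin-like growth factor binding protein (chr11:7206086-7213923, minus strand), was at 696 CPM in 19 of 36 control cells (0 to 35 UMIs, median 1) and 113 CPM in 5 of 15 knockout cells (0 to 4, median 0), a ratio of 6.14 (3.05 to 14.4). The adhesion gene Mcam was at 376 and 170 CPM, a ratio of 2.21 (1.21 to 4.43). The libraries overlap for each of these genes, since the median cell is at or near 0 in both.

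The tip genes were concentrated in few cells. In the control library 5 of 36 blood cells (13.9%, interval 4.67 to 29.5%) held at least 5 Apln UMIs, a limit set after the values were seen, against 0 of 15 in the knockout (0 to 21.8%). Those 5 cells gave 91.3% of the control blood Apln UMIs, 93.5% of Angpt2 and 94.8% of Esm1, and all 5 were in the venous-gene pattern. They were also deep, at 6314 to 54969 UMIs, and made up 39.4% of the control blood UMIs. Only 4 knockout blood cells had at least 6000 UMIs, against 14 in the control library. Thinned to 2000 UMIs, Apln was detected in 7 of 30 control and 1 of 12 knockout blood cells, with intervals of 9.93 to 42.3% and 0.211 to 38.5%, which overlap. Without the 5 cells the median of the list was 0.18, and Apln stood at 43.9 CPM in the control, with 7 UMIs, against 42.5 CPM in the knockout, a ratio of 1.03 (0.236 to 6.19). Angpt2 then had 7 UMIs in the control and a ratio of 1.55 (0.295 to 15.3), while Igfbp3 kept a ratio of 6.03 (2.96 to 14.3) and Mcam 2.07 (1.09 to 4.24). Esm1, a proteoglycan of tip cells, was at 293 and 269 CPM, but 18 of the 19 knockout UMIs came from a single Btnl9 cell, and without the 5 cells the control level was 25.1 CPM.

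**Figure D4:**
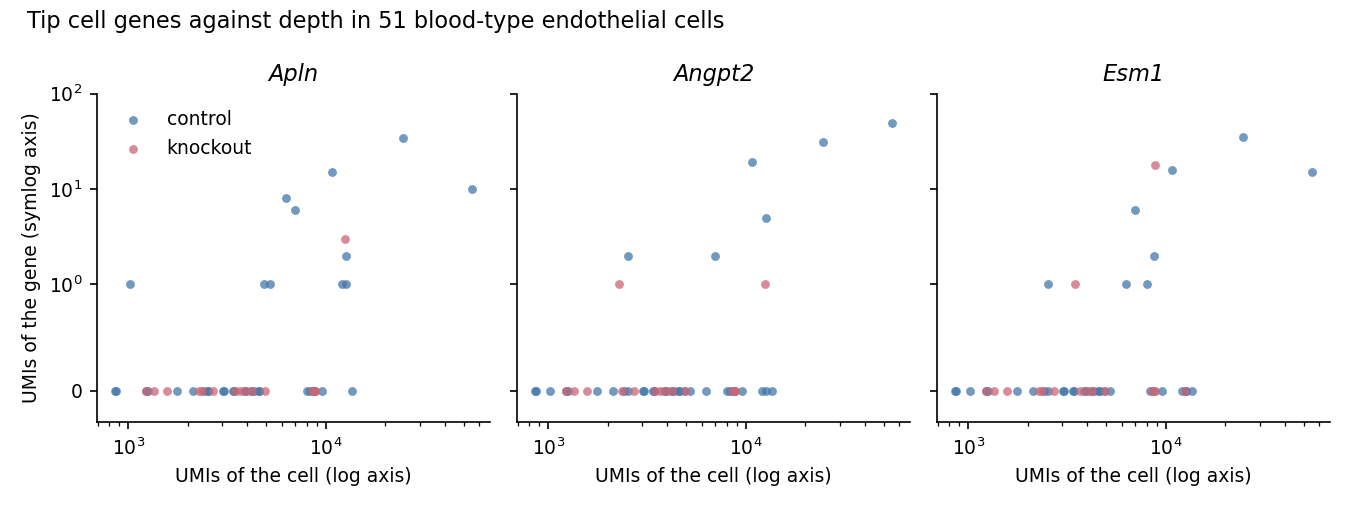
UMIs of Apln, Angpt2 and Esm1 (axis linear near 0 and logarithmic above) against the total UMIs of each of the 51 blood-type cells (log axis), blue for control and red for knockout. The 5 control cells with at least 5 Apln UMIs lie at 6314 UMIs of depth or more, and the highest knockout cell for Apln has 3 UMIs.

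Genes of capillary endothelium were higher in the knockout sum. Of 8 with enough UMIs, 4 were higher by over 2-fold and none lower, at a median log2 ratio of 0.9995. Btnl9 gave 29 UMIs in 11 of 36 control cells, with at most 6 in a cell, and 38 UMIs in 6 of 15 knockout cells, with at most 12. Its levels were 110 and 538 CPM, a knockout to control ratio of 4.88 (2.93 to 8.21). Deep cells weigh most in these sums: with each cell counted equally the levels were 258 and 657.5 CPM, a ratio of 2.55, and a random draw of 2000 UMIs from each cell that had them gave 300.0 and 375 CPM, where another such draw gave a log2 ratio of 1.32. Without the 5 control cells with at least 5 Apln UMIs, none of which held Btnl9, the ratio was 2.96 (1.78 to 4.98). Rgcc, a cell cycle regulator gene of capillary endothelium, was at 528 and 1162 CPM, a ratio of 2.20 (1.65 to 2.91), although 1 cell gave 41 of its 82 knockout UMIs. Cd300lg, the gene of the adhesion receptor nepmucin, had a ratio of 2.03 (1.18 to 3.42), and the transcription factor gene Tcf15 2.24 (0.997 to 4.80); with each cell counted equally the ratio was 1.03 for Cd300lg and 3.04 for Tcf15. Gpihbp1, which holds lipoprotein lipase on capillaries, went the other way at 494 and 298 CPM, a ratio of 0.602 (0.361 to 0.959). As a mean over cells, in which each cell counts equally, the median of the list was 0.13, and the share of blood cells with Btnl9 was 30.6% for control and 40.0% for knockout, with intervals that overlap (16.4 to 48.1% and 16.3 to 67.7%).

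Cxcl12, Kdr, Flt1 and Nrp1 followed the same direction in sums. In the median cell Cxcl12 was also higher in the knockout, at 70.2 CPM in the control and 227 CPM in the knockout, while the other genes were lower. Cxcl12 was at 487 CPM in the control and 1275 CPM in the knockout, a ratio of 2.62 (1.98 to 3.46), with detection in 19 of 36 and 8 of 15 cells, and with each cell counted equally the ratio was 1.73. Kdr was at 806 and 1530 CPM, a ratio of 1.90 (1.49 to 2.41), yet the median cell was at 989 CPM in the control and 422 in the knockout and 1 knockout cell held 38.0% of its UMIs. Flt1 had a ratio of 1.60 (1.31 to 1.95) in sums, but stood at 1959 and 2044 CPM with each cell counted equally, and its levels were also nearly alike in a draw of 2000 UMIs from each cell. Nrp1 had a ratio of 1.57 (1.17 to 2.09) in sums and stood at 886 and 800.4 CPM with equal cells. That draw gave 833 and 625 CPM, but the mean over the same cells without a draw was 849 and 894 CPM. The direction for Nrp1 at equal weight is therefore unsettled. Nrp1 was detected in 32 of 36 control against 8 of 15 knockout cells. Kdr stood at 1448 and 1391 CPM with equal cells. The 7 VEGF and angiopoietin receptors had a median of 0.66 with none past the fold, and -0.0466 as a mean over cells. Thbd, an anticoagulant receptor gene known to respond to flow, was at 182 and 510 CPM, a ratio of 2.80 (1.76 to 4.40). With each cell counted equally it was at 398 and 520.5 CPM. A single draw of 1000 UMIs from each cell gave the opposite direction, with detection in 16 of 34 control and 3 of 15 knockout cells. The mean over those same cells without a draw was 388 and 520.5 CPM. Without thinning it was detected in 22 of 36 control (61.1%) and 8 of 15 knockout cells (53.3%).

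The endothelial transcription factor genes Mecom and Sox18 were lower in the knockout library. Mecom gave 313 UMIs in 20 of 36 control cells (0 to 72, median 1) and 14 UMIs in 5 of 15 knockout cells (0 to 5, median 0), a control to knockout ratio of 5.998 (3.52 to 11.1). The 5 control cells with at least 5 Apln UMIs held 214 of the 313, and without them the levels were 621 and 198 CPM, a ratio of 3.13 (1.78 to 5.94). Sox18 was detected in 29 of 36 control cells at 418 CPM, with up to 27 UMIs, and in 7 of 15 knockout cells at 142 CPM, with up to 3, a ratio of 2.95 (1.54 to 6.33). At 2000 UMIs a cell, Sox18 was detected in 16 of 30 control and 2 of 12 knockout blood cells, with intervals of 34.3 to 71.7% and 2.09 to 48.4%. Of the 22 pan-endothelial genes, Sox18 and Cldn5 were lower by over 2-fold and none higher, at a median of 0.04. Of 13 transcription factor genes 1 was lower. Without the 5 cells with at least 5 Apln UMIs, Sox18 had a ratio of 3.01 (1.54 to 6.56).

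**Figure D5:**
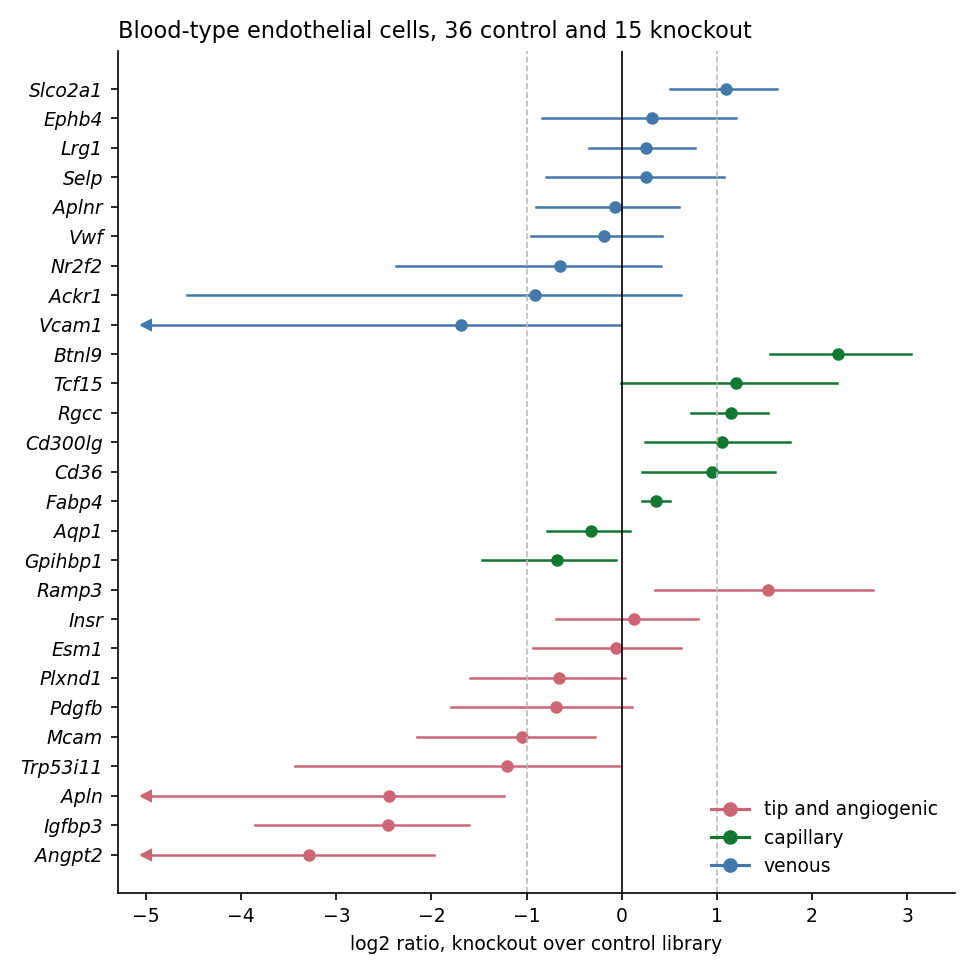
Log2 ratio of the knockout over the control library, with exact 95% intervals for counting error, for tip and angiogenic (red), capillary (green) and venous (blue) genes with at least 20 UMIs in the 36 control and 15 knockout blood-type cells; dashed lines mark a 2-fold difference and arrows run past the axis. Angpt2, Igfbp3 and Apln lie farthest to the left and Btnl9 farthest to the right.

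Venous genes differed little in sum. Of 9, Slco2a1, a prostaglandin transporter gene, was higher by over 2-fold with a ratio of 2.11 (1.42 to 3.105) that was 1.28 (0.858 to 1.88) without the 5 Apln cells, and Vcam1 was lower, with 23 UMIs in 8 control cells and 1 UMI in the knockout, a control to knockout ratio of 6.17 (1.002 to 254). The median was -0.07. Vwf was at 384 and 326 CPM, Selp, the gene of P-selectin, at 175 and 198 CPM, and Lrg1, a TGF-beta modulator gene, at 449 and 524 CPM, with ratio intervals that hold 1. Plvap, detected in 35 of 36 control and 15 of 15 knockout cells, was at 1908 and 2565 CPM, a ratio of 1.34 (1.13 to 1.60).

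Both libraries held both blood patterns. Btnl9 cells were 11 of 36 control and 6 of 15 knockout blood cells, venous-gene cells 19 and 8, and cells with neither 6 and 1. Within the venous-gene cells, whose median depth was 8690 UMIs in the control and 3336 in the knockout, Mecom stood at 1499 and 368 CPM, a log2 ratio of -1.93 (-2.91 to -1.26). In the same cells Sox18 was detected in 17 of 19 control and 2 of 8 knockout cells, at a log2 ratio of -2.002 (-4.71 to -0.80), and Esm1 gave 75 UMIs in the control and 0 in the knockout. The 5 control cells with at least 5 Apln UMIs, all of this pattern, held 73 of those 75 Esm1 UMIs. They also held 214 of the 306 control UMIs of Mecom in this pattern, 42 of the 85 of Sox18 and 74 of the 117 of Igfbp3. Slco2a1 was higher in the venous-gene cells of the knockout, at 294 and 894 CPM (1.62, 0.95 to 2.24). The same 5 control cells held 0 of its 60 control UMIs in this pattern but 39.4% of all control blood UMIs, which lowers its control level. Without them its ratio over all blood cells was 1.28 (0.858 to 1.88), and the ratio within this pattern was not taken. Within the Btnl9 cells, whose medians were 3391 and 4304 UMIs, the log2 ratio of Btnl9 itself was 0.65 with an interval of -0.07 to 1.41, and Sox18 was at -0.19 (-1.87 to 1.30). Rgcc was higher there in the knockout at 713 and 2427 CPM (1.73, 1.12 to 2.46), as was the basement membrane collagen gene Col4a1 at 1822 and 4183 CPM (1.19, 0.77 to 1.64). Igfbp3 was lower in the knockout in both patterns, at -2.59 (-4.30 to -1.56) in Btnl9 cells and -2.87 (-6.51 to -1.56) in venous-gene cells. Col4a1 had opposite signs, since it was at -0.91 (-1.28 to -0.59) in venous-gene cells; a test of that difference is not possible with 1 library per genotype.

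Among the other gene groups, read against the 12.4% of genes that passed 2-fold in either direction, 4 of 9 genes of endothelial-derived ligands passed it. Cxcl12 and the TGF-beta gene Tgfb1 were higher and Apln and Angpt2 lower, at a median of -0.36. The 14 basement membrane genes had a median of -0.20, with Col18a1 lower (297 and 99.2 CPM). The 15 MHC class I genes had a median of -0.22 with 1 lower, the 7 BMP and TGF-beta receptor genes -0.10 and the 6 Notch genes -0.02, with none past the fold in the last groups. Of 9 genes of the interferon gamma response 2 were lower, Igtp at 179 and 28.3 CPM and Gbp5 at 91.2 and 28.3 CPM, at a median of -0.42. The 8 genes of the type I interferon response had a median of 0.15, and Rsad2, the gene of the antiviral protein viperin, was higher, with 11 UMIs spread over 5 control cells and 13 UMIs over 6 knockout cells, a ratio of 4.40 (1.82 to 10.9). Of 3 MHC class II genes with enough UMIs 2 were higher, but 84.2% of the knockout UMIs of Cd74, the invariant chain, came from 1 cell, and its log2 ratio was 1.16 with the deepest cells and -1.37 without them. Of 4 mesenchymal genes Vim (3619 and 1431 CPM) and Fn1 (175 and 14.2 CPM) were lower, and a single control cell gave 45.9% and 52.2% of their control UMIs. Genes induced by tissue dissociation summed to 1988 and 1828 CPM. Proliferation genes were sparse, with 42 UMIs in the control and 7 in the knockout blood cells.

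The deletion of Porcn was directed at macrophages and related myeloid cells by the Cre driver, and whether endothelial cells kept the gene was not tested. The endothelial cells were examined for the Wnt receptors and target genes they express. Porcn itself gave 3 UMIs in 2 control endothelial cells and 0 in the knockout, where 3 UMIs would be 18.5 CPM, and Csf1r gave 1 and 0 UMIs, so endothelial levels of either could not be compared at this depth. Fzd4 was detected in 30 of 51 blood cells at 159 CPM and in 3 of 7 lymphatic cells at 42.1 CPM. Fzd6 showed the reverse, at 235.7 CPM in 6 of 7 lymphatic cells and 21.0 CPM in 5 of 51 blood cells, 11.2-fold higher in the lymphatic type (4.79 to 30.5). Between libraries, blood-cell Fzd4 was at 156 and 170 CPM, a ratio of 1.09 (0.522 to 2.12), and its partner Tspan12 at 98.8 and 127.5 CPM, a ratio of 1.29 (0.532 to 2.84). The common Wnt target genes Axin2 and Lef1, and Notum and Rnf43, had no UMI in the 58 cells, where 3 UMIs would be 6.63 CPM. Axin2 stood at 3.79 CPM and Lef1 at 5.72 CPM over all other cells, so levels like those were not detectable here. Ccnd1, a less specific Wnt target gene, was detected, with 142 UMIs in blood and 18 in lymphatic cells. Its blood to lymphatic ratio was 2.81 (1.72 to 4.88). Of 5 Wnt genes with enough UMIs in blood cells none passed 2-fold, at a median of 0.31.

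The naming rule for genes outside the lists, which required detection in at least 25% of the cells of the higher library with no dominating cell, added further names. It left 200 genes eligible as higher in the knockout and 1362 as lower. The deepest knockout cell gave 32.3% of the knockout endothelial UMIs, so the limit on a dominating cell fell mostly on the higher side. Over all 58 cells the highest in the knockout were Clic5, Ankrd50, Igkc, Ocel1, Maea, Plscr4, Usp8, Ndufs1, Exoc2 and Tmem204, and the lowest Tspan8, Mecom, Igfbp3, Morrbid, Rab35, Lrrc8c, Rcbtb2, Tnk2, Aldh2 and Spp1. These sums mix blood and lymphatic cells in unequal parts, as described above. Mecom, for example, had no UMI in lymphatic cells, though it was also lower in blood cells alone. How far the mix set these names was not tested gene by gene. Clic5, which belonged with the Btnl9 cells above, was at 57.0 CPM in control and 326 CPM in knockout blood cells, a ratio of 5.72 (2.86 to 11.8). In blood cells Ext1, a heparan sulphate polymerase gene, gave 140 UMIs in the control and 3 in the knockout, and Igf1r, the insulin-like growth factor receptor gene, 45 and 0. Of the genes named by the rule, Igkc, Tspan8 and Spp1 are abundant in other cells. Their over-all levels were 3332, 911 and 2643 CPM outside the endothelium against 53.1, 50.8 and 59.7 CPM in it. How far free RNA takes part in their endothelial counts was not tested.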

How the data were processed

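The deposited files hold raw UMI counts per gene and barcode, 1 matrix per library, made by the authors from 10x Genomics 3′ v3.1 libraries of pooled tumours. The matrices come from Cell Ranger 8.0.0 per the file headers, and the submitters' processing notes name Cell Ranger 3.1.3 and mm10; which applies was not settled. The libraries held 13766 and 12251 barcodes with 173934025 and 137527647 UMIs, and 11664 and 10808 barcodes passed the limits of 500 genes or more and 15% mitochondrial UMIs or less. UMIs were summed over the cells of a class and divided by the class total (CPM). Log2 ratios have 1 UMI added to each sum, and genes needed 20 UMIs over the classes compared. A gene counts as past the fold when its log2 ratio is at least 1 in size.

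With 1 library per genotype no test was run: shares have exact Clopper-Pearson intervals, sums exact Poisson and ratios exact conditional intervals at 95%, which cover counting error only. A count of 0 was set against 3 UMIs over the class. Shares of cells with a UMI were also taken after thinning each cell to 2000 UMIs, which left out 10 of the 58 cells. Doublets were called with Scrublet in scanpy 1.11.5 at an expected rate of 0.08, and no cell was removed for it. The comparison classes were set from the counts: leukocytes had Ptprc, keratin-high cells over 10 keratin UMIs, fibroblasts at least 20 UMIs and pericytes at least 3 UMIs of their markers. Cells of every class had no Cdh5 UMI, and all but the leukocytes had no Ptprc UMI. Leukocytes, fibroblasts and pericytes had at most 10 keratin UMIs.

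The members and gene lists were chosen with earlier results of these data known. The thresholds of the comparison classes, the Btnl9 and venous-gene patterns, the gene pairs set against each other, the limit of 5 Apln UMIs and some genes named beside the lists were chosen after values were seen. Named genes were list genes, the 20 highest over other cells, and the 10 highest and 10 lowest between libraries and between types among genes with 20 UMIs, detection in 25% of the cells of the higher side and no cell with over 25% of the UMIs there, without mitochondrial, ribosomal, haemoglobin, Xist, Y-linked and unnamed predicted genes. Of 32285 gene IDs, 32158 matched GENCODE M21, which gave the positions, and promoters came from RefSeq (GRCm38.p6), 1 window per gene. For Gpihbp1, Cdh5, Afap1l1, Sox18, Arhgef15 and Sox17 no promoter was used. The code ran in Python 3.11.15 with numpy 2.4.6, scipy 1.17.1, pandas 2.3.3 and matplotlib 3.10.9 and was tested on simulated data.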

Additional observations from a re-analysis of the deposited data

How the results depend on the processing

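No paired analysis was possible because each genotype is 1 pooled library with no replicate number. Leaving out a replicate could not be done for the same reason, and the alternatives change the cells, the thinning, the UMI minimum, the pseudocount or the weighting. Those for blood-type cells alone were added after seeing the data.

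The ratio of endothelial shares, 0.526, lay between 0.436 and 0.720 in the 8 settings tried, and the lymphatic share of 12.1% between 8.62 and 19.0% in 3. The numbers of genes past the fold moved with the UMI minimum by construction, since it sets how many genes are counted. Lymphatic against blood, a minimum of 50 UMIs gave 206 higher and 232 lower genes in place of 607 and 516. Knockout against control over all cells, the higher count of 332 became 162 in blood cells, 30 thinned to 2000 UMIs, 105 at a minimum of 50 UMIs, 1216 at 5 UMIs and 148 without the deepest cell of each library. The lower count of 294 became 567 as a mean over cells, 49 thinned, 98 at 50 UMIs, 803 at 5 UMIs and 114 with a pseudocount of 5 UMIs. In blood cells the higher count of 162 became 87 at no more than 3 keratin UMIs, 256 as a mean over cells, 24 thinned, 26 at 50 UMIs, 1140 at 5 UMIs, 318 with the pseudocount of 5 UMIs and 69 without the 5 Apln cells. The lower count of 229 became 152, 364, 43, 53, 727, 26 and 122 in the same order. The pseudocount of 5 UMIs moved the median of all genes from 0.01 to 0.37 in blood cells and from 0.04 to 0.17 over all cells, and the minimum of 5 UMIs moved it to 0.12 and 0.11, so list medians under them are read against those values.

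Over all cells the pan-endothelial median of -0.32 was -0.53 at no more than 3 keratin UMIs, 0.0427 in blood cells, -0.10 as a mean over cells, -0.11 thinned and -0.13 without the deepest cells. The tip and angiogenic median of -1.61 was -1.19 at no more than 3 keratin UMIs, -0.87 in blood cells, -0.60 thinned, -1.21 with the pseudocount of 5 UMIs and -1.19 without the deepest cells. The capillary median of 0.03 was 0.9995 in blood cells, 0.21 thinned, -0.11 at 5 UMIs and 0.59 without the deepest cells. The type I interferon median of -0.62 was 0.00273 at no more than 3 keratin UMIs, 0.15 in blood cells and 0.63 as a mean over cells. The VEGF and angiopoietin receptor median of -0.21 was 0.66 in blood cells, 0.11 thinned and 0.0737 without the deepest cells. The venous median of -0.83 was 0.0848 as a mean over cells, 1.05 thinned and 0.0369 at 50 UMIs, and Vwf at -1.24 was 0.18 as a mean over cells and 1.01 thinned. Cldn5 at 2.27 was -1.84 in blood cells, the BMP and TGF-beta receptor median of -0.90 was 0.11 thinned and the MHC class I median of -0.10 was 0.24 at 50 UMIs.

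In blood cells the pan-endothelial median of 0.04 was -0.0713 under limits of 1000 genes and 10% mitochondrial UMIs, -0.0716 at 5 rule UMIs, -0.105 at no more than 3 keratin UMIs, -0.0802 thinned and 0.21 with the pseudocount of 5 UMIs. The tip median of -0.87 was -1.24 as a mean over cells, -1.55 thinned, -0.45 with the pseudocount of 5 UMIs and 0.18 without the 5 Apln cells. The capillary median of 0.9995 was 0.13 as a mean over cells, 0.49 thinned, 0.87 at 5 UMIs, 1.15 without the deepest cells and 0.75 without the 5 Apln cells. The basement membrane median of -0.20 was 0.0857 at no more than 3 keratin UMIs and 0.35 without the 5 Apln cells. The interferon gamma median of -0.42 was 0.16 as a mean over cells, 0.0491 at 50 UMIs, 0.0411 at 5 UMIs and 0.13 with the pseudocount of 5 UMIs. The VEGF receptor median of 0.66 was -0.0466 as a mean over cells. The transcription factor median of -0.18 was 0.13 with the pseudocount of 5 UMIs, 0.14 without the deepest cells and 0.0342 without the 5 Apln cells. With the pseudocount of 5 UMIs, MHC class I at -0.22 was 0.12 and hypoxia and glycolysis at -0.41 was 0.11. Cd74 at 1.16 was -1.37 without the deepest cells. Beyond construction, the cause of these shifts was not tested.

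Detection depended on depth: Kdr at 77.1% of thinned cells was 58.2% at 1000 UMIs and 89.7% not thinned, Plvap at 79.2% was 93.1% not thinned, and Apln at 16.7% was 7.27% at 1000 UMIs. Of 1038 values of 108 single genes and lists under the alternatives, 823 stayed within the interval set around the main value and 188 left it. The other 27 had the opposite sign to a main value clear of 0, which for single genes between libraries was also past the fold. Sign changes of other main values are counted among the 823 and 188. For example, the median of all genes went from 0.04 over all cells to -0.08 as a mean over cells. The number of cells limits most comparisons, as 15 knockout blood cells hold 70569 UMIs.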
